A study of Mus musculus with 2 samples.

Results

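The insulin-like growth factor (IGF) family described here comprises 10 genes chosen by name from the deposited table of 29383 gene symbols: the ligand gene Igf1, the receptor gene Igf1r, the genes of 5 secreted IGF binding proteins (Igfbp2, Igfbp3, Igfbp4, Igfbp5 and Igfbp7) and the genes of 3 IGF2 mRNA binding proteins (Igf2bp1, Igf2bp2 and Igf2bp3). RNA sequencing was done on heart apex tissue of mouse embryos at E12.5, with 8 hearts pooled into 1 library for each genotype. The mutant library is labelled Nkx2-5cre, Ezh2f/f, with both Ezh2 alleles floxed, and the control library Nkx2-5cre, Ezh2f/+, with 1 floxed allele, so the Nkx2-5cre driver and a floxed copy of Ezh2, the catalytic subunit of the Polycomb repressive complex PRC2, were present in each. Nkx2-5 is known as a gene of the early heart lineage, and cells outside the reach of the driver would keep Ezh2 in mutant tissue too. Since each genotype has 1 library, the differences have no replicate check and genotype could not be tested. Intervals in parentheses are 95% intervals and cover counting error only.

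IGF2 and IGF1 are secreted growth factors that act through the tyrosine kinase receptor IGF1R, and in the embryonic heart IGF2 is known as a mitogen for ventricular cardiomyocytes. IGFBPs bind the ligands outside the cell and can hold them in reserve or block their access to the receptor, and proteases release the ligand by cutting them. The IGF2 mRNA binding proteins are unrelated to IGFBPs: they are cytoplasmic RNA binding proteins of embryonic tissues that control the stability, location and translation of messages such as Igf2, Actb and Myc.

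The libraries held 14122579 reads in the mutant and 13944617 in the heterozygote. Ezh2 had 319 reads in the mutant and 493 in the heterozygote, 1.66-fold lower in the mutant (1.44 to 1.92), counted over the whole gene and not over the floxed part alone. Defining cardiomyocyte genes were abundant in each library, with a summed level of 37274 reads per 1000000 scaled reads (CPM) in the mutant and 35943 CPM in the heterozygote for the 10 marker genes used. The labels call the tissue cardiomyocytes, but all 8 endothelial and all 8 epicardial marker genes were also at or above 1 CPM, so the libraries hold RNA of several cell types. In such tissue, fewer cells of a type and less RNA per cell cannot be told apart. Levels were scaled with TMM, a trimmed mean of log ratios, and log2 ratios were formed with 1 CPM added to each library.

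All 10 family genes were above 5 CPM in both libraries. At a 2-fold bar, 1 of them, Igfbp2, was higher in the mutant and 0 were lower, where 0.605% of the 16185 genes reaching 1 CPM were higher and 0.173% lower. A 1.5-fold bar left the family count at 1 higher and 0 lower, with 3.45% of all these genes higher and 1.88% lower. Among the 12875 genes reaching 5 CPM, 0.388% were higher and 0.109% lower at 2-fold, and 2.17% higher and 1.23% lower at 1.5-fold. The other 9 family genes lay between log2 ratios of -0.33 and 0.30. The family median was 0.11, with 6 of 10 above 0, and the median of all genes reaching 1 CPM was -0.01, with 48.8% above 0. The family median was 0.04 after removal of a trend on GC content and length, and 0.19 under total-count scaling, where the median of all genes was 0.07.

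**Figure D1:**
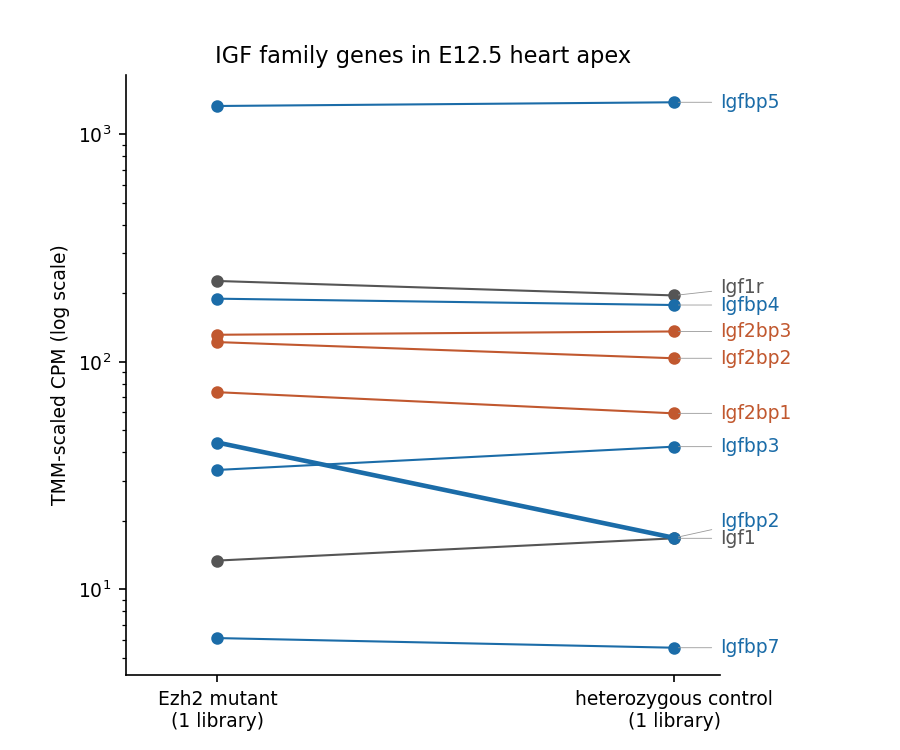
Level of each family gene in the mutant library (left) and the heterozygous control library (right), in TMM-scaled CPM on a log axis, with 1 point per gene and library (grey, ligand and receptor; blue, IGF binding proteins; orange, IGF2 mRNA binding proteins). Igfbp2 (thick line) has 44.2 CPM in the mutant and 16.9 CPM in the heterozygote, and the other lines are close to level.

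Igfbp2 encodes a secreted binding protein that holds IGFs and can also attach to integrins at the cell surface. It had 644 reads in the mutant and 228 in the heterozygote, that is 44.2 CPM and 16.9 CPM. The mutant level was 2.62-fold that of the heterozygote (2.25 to 3.07), and its log2 ratio of 1.34 had rank 37 from the highest among 16185. The lower end of this interval lay above the upper end for each of the other 9 family genes, of which the highest was 1.52, for Igfbp7. No other gene model overlapped Igfbp2 in the table.

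Igfbp2 and Igfbp5 are neighbours on chromosome 1. In the table's coordinates, for which the sources used here give no genome build, Igfbp2 spans 72871077 to 72899045 on the plus strand and Igfbp5 spans 72904639 to 72921439 on the minus strand, with their 3' ends facing each other across 5593 bases. Igfbp5, whose product binds extracellular matrix as well as IGFs, had 19417 reads in the mutant and 18735 in the heterozygote. Its scaled level was 1334 CPM in the mutant and 1385 CPM in the heterozygote, a ratio of 0.963 (0.944 to 0.983). A difference of 2-fold or more was thus seen in 1 gene of this adjacent pair, and the direction of Igfbp5 flipped under total-count scaling. Within 500 kb of Igfbp2 there were 4 tested genes, Igfbp5 among them, with log2 ratios from -0.36 to -0.05.

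The promoters of this pair are shown because the neighbours differ in their ratio. Each run is the 250 bases before an annotated start, 5' to 3' on the gene's strand, from RefSeq for GRCm38.p6, a build whose positions differ from those of the table. Capitals mark CG dinucleotides, since PRC2 is known in embryonic stem cells for binding promoters rich in them. Igfbp2 has 2 annotated starts, with windows at chr1:72824230-72824479 and chr1:72825137-72825386 on the plus strand, and Igfbp5 has 1, with its window at chr1:72874866-72875115 on the minus strand.
Igfbp2 upstream start: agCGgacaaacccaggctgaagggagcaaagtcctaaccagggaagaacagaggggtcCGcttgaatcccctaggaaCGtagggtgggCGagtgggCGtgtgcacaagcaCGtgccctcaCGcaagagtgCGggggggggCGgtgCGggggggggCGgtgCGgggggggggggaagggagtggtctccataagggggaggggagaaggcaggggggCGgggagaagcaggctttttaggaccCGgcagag
Igfbp2 downstream start: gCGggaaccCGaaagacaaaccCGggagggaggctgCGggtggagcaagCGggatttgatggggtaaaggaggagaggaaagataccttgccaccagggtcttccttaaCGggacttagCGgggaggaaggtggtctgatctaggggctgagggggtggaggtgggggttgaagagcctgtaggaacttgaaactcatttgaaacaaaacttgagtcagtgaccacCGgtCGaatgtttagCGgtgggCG
Igfbp5: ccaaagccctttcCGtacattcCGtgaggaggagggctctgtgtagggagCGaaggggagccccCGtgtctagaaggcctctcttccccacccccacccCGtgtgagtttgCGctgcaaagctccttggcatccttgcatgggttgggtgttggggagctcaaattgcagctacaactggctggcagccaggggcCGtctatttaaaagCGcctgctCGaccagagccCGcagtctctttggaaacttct

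The windows of Igfbp2 held 14 CG dinucleotides at the upstream start and 11 at the downstream start, and that of Igfbp5 held 10. Of 32851 such promoter windows, 29.4%, 35.6% and 37.8% held at least as many. The letters GGGCGG, known as the GC box, read on either strand, occurred 3 times in the upstream Igfbp2 window and 0 times in the downstream one and in that of Igfbp5, and 32.7% of all windows held at least 1. It occurred 4 times in the window of Igfbp7, 2 times each in those of Igf1r and Igf2bp2, and 0 times in those of Igf1, Igf2bp3, Igfbp3 and Igfbp4. A window was found for 9 of the 10 family genes. CG counts among them ran from 5 for Igf1 to 42 for Igf1r, with 40 for Igf2bp2, 32 for Igfbp3, 26 for Igfbp7, 22 for Igfbp4 and 21 for Igf2bp3. Igfbp2, with 14 and 11, lay below Igf2bp3 and above Igfbp5, and the median over all windows was 6. Bases after the start were not counted. These counts describe letters in the reference, and no binding or histone methylation was measured.

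Among the remaining binding proteins, Igfbp3 was the lowest in ratio. Igfbp3 (chromosome 11, 7106096 to 7113926, minus strand), which carries IGFs in the blood of adults, had 488 reads in the mutant and 574 in the heterozygote, that is 33.5 CPM and 42.4 CPM. It was 1.27-fold lower in the mutant (1.12 to 1.43), and 89.9% of all tested genes had a higher ratio. Its neighbour on chromosome 11, Igfbp1, lies 3557 bases away and had 0 reads in each library, which allows up to 3. Igfbp4 (chromosome 11, 98902574 to 98913957, plus strand), an inhibitory binding protein that releases its ligand on cleavage by the protease Pappa, had 2762 reads in the mutant and 2407 in the heterozygote (189.7 CPM and 177.9 CPM, ratio 1.07, 1.01 to 1.13), with a direction that depended on the GC correction given below. Igfbp7 (chromosome 5, 77778270 to 77837066, minus strand), a relative that binds IGFs weakly, had 89 reads in the mutant and 75 in the heterozygote (6.11 CPM and 5.54 CPM). The Igfbp7 ratio of 1.10 had an interval of 0.802 to 1.52, so a difference was not detectable at this depth. Its end overlaps that of Polr2b by 80 bases on the opposite strand, and Polr2b, an RNA polymerase subunit gene, had 718 reads in the mutant and 926 in the heterozygote. The use of strand in counting was not stated in the sources used here.

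Summed over the 5 binding protein genes, the mutant had 1607 CPM and the heterozygote 1628 CPM, a ratio of 0.987 (0.969 to 1.01). Without Igfbp5 the sums were 274 CPM in the mutant and 243 CPM in the heterozygote, a ratio of 1.13 (1.08 to 1.18).

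**Figure D2:**
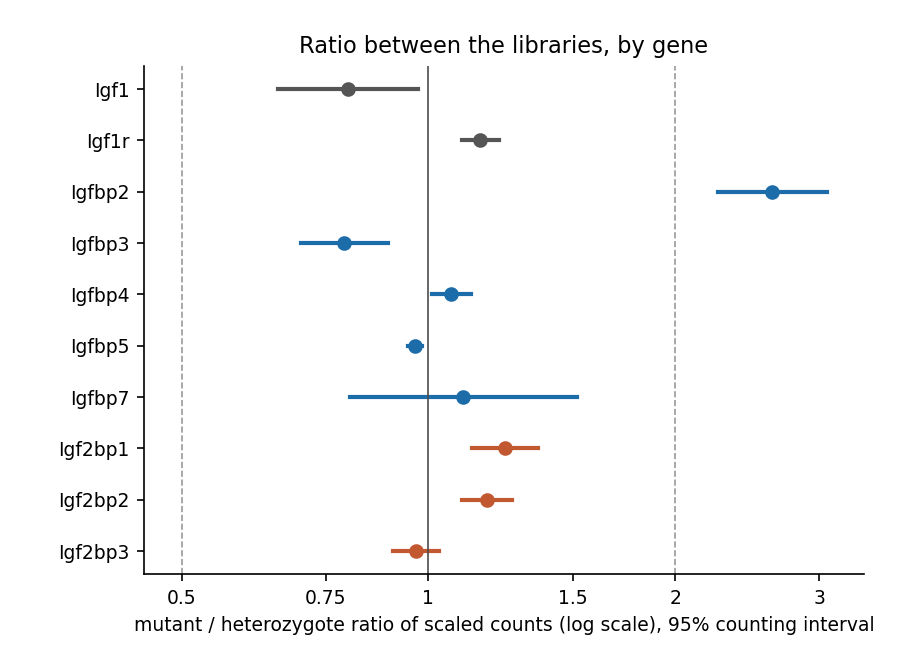
Mutant-to-heterozygote ratio of scaled counts for each family gene on a log axis (points), with the 95% counting interval (bars), in the order ligand, receptor, binding proteins, mRNA binding proteins. Dashed lines mark 0.5 and 2. Igfbp2 at 2.62 is the only gene past a dashed line.

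The ligand and the receptor differed in opposite directions and by little. Igf1 (chromosome 10, 87321912 to 87394538, plus strand) had 195 reads in the mutant and 227 in the heterozygote, at 13.4 CPM and 16.8 CPM, and was 1.25-fold lower in the mutant (1.03 to 1.52). Igf1r (chromosome 7, 75097143 to 75378553, plus strand) had 3304 reads in the mutant and 2652 in the heterozygote, at 227 CPM and 196 CPM, a ratio of 1.16 (1.10 to 1.22). Intervals that exclude 1 were common at this depth: 17.4% of all tested genes had one above 1 and 19.1% one below. In the family 5 genes had one above 1 (Igf1r, Igfbp2, Igfbp4, Igf2bp1 and Igf2bp2) and 3 one below (Igf1, Igfbp3 and Igfbp5). Intervals narrow as reads rise, and the family genes were all above 5 CPM, so the shares of all tested genes are not a matched background. Shares at matched read numbers were not computed.

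The 3 mRNA binding protein genes did not share a ratio. Igf2bp1 (chromosome 11, 95824046 to 95867226, minus strand) had 1072 reads in the mutant and 804 in the heterozygote (73.6 CPM and 59.4 CPM, ratio 1.24, 1.13 to 1.36). A model named by the accession of a cDNA clone adjoins its 3' end on the same strand and overlaps it by 234 bases. That model had 1969 reads in the mutant and 1464 in the heterozygote, and with its reads added the Igf2bp1 ratio was 1.25 (1.18 to 1.32). Igf2bp2 (chromosome 16, 22059082 to 22163372, minus strand) had 1780 reads in the mutant and 1404 in the heterozygote (122 CPM and 104 CPM, ratio 1.18, 1.10 to 1.26). Igf2bp3 (chromosome 6, 49035220 to 49164712, minus strand) had 1917 reads in the mutant and 1842 in the heterozygote (131.7 CPM and 136 CPM). The Igf2bp3 ratio of 0.967 (0.907 to 1.03) was within counting error of 1, and the model mimp3, which overlaps it on the same strand and can share its reads, had 890 reads in the mutant and 863 in the heterozygote. The interval of Igf2bp3 did not overlap that of Igf2bp1 or Igf2bp2. A shorter model inside Igf2bp3 on the same strand had 113 reads in the mutant and 106 in the heterozygote. Summed over the 3 genes, the mutant had 328 CPM and the heterozygote 299 CPM, a ratio of 1.09 (1.05 to 1.14). That sum leaves out the model adjoining Igf2bp1.

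**Figure D3:**
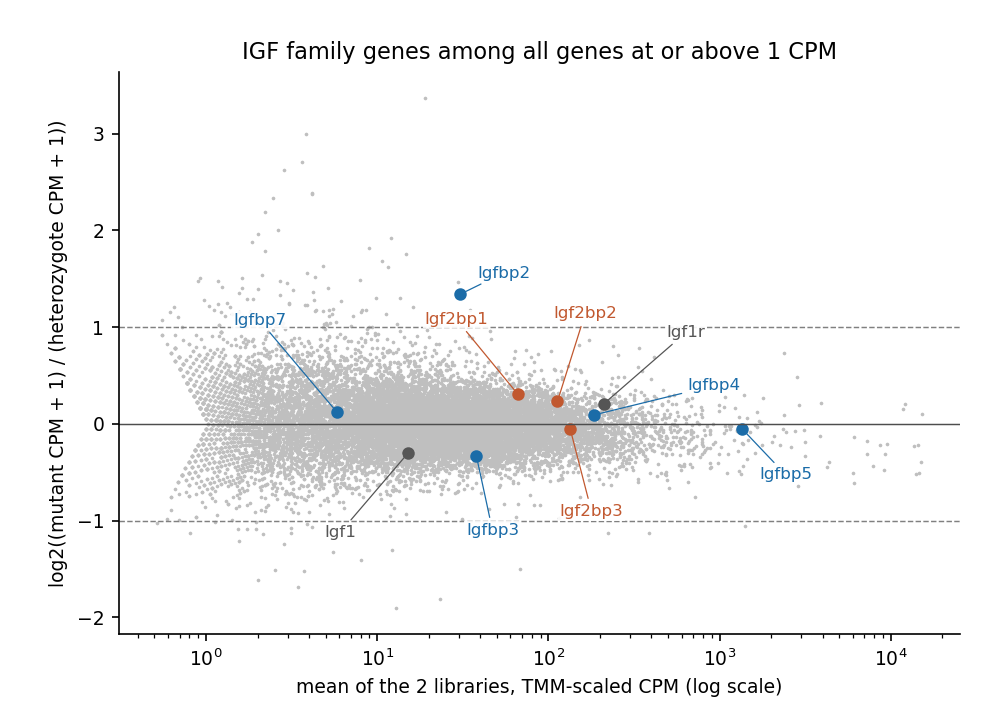
Mean TMM-scaled CPM of both libraries (log axis) against the log2 ratio of mutant to heterozygote with 1 CPM added, for the 16185 genes at or above 1 CPM (grey) and the 10 family genes (coloured and named). Dashed lines mark a 2-fold difference. Igfbp2 at 1.34 lies above the upper line, and the other 9 lie between -0.33 and 0.30.

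Levels of different genes were compared per kilobase of the longest GENCODE transcript, as scaled CPM per kb. Igfbp5 was the most abundant family transcript, with 222 CPM per kb in the mutant and 231 in the heterozygote, followed by Igfbp4 with 49.5 in the mutant and 46.4 in the heterozygote. Igfbp2 had the third highest level in the mutant, at 33.8 CPM per kb (31.3 to 36.6), and the seventh highest in the heterozygote, at 12.9 (11.3 to 14.7). It was the eighth in the heterozygote if Igf2bp1 is counted with the adjoining model described above. In the mutant its interval overlapped that of Igf2bp3, the next in order at 30.3 CPM per kb (28.96 to 31.7). The level of Igfbp5 was 6.56 times that of Igfbp2 in the mutant and 17.9 times in the heterozygote.

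Igf2bp2 followed at 24.7 CPM per kb in the mutant and 20.96 in the heterozygote, and the receptor gene Igf1r at 19.9 in the mutant and 17.2 in the heterozygote. Igfbp3 had 13.8 in the mutant and 17.5 in the heterozygote, which placed it below Igf1r in the mutant and beside it in the heterozygote. The lowest levels were those of Igf2bp1, at 8.79 in the mutant and 7.09 in the heterozygote, Igfbp7, at 5.09 in the mutant and 4.62 in the heterozygote, and Igf1, at 1.90 in the mutant and 2.38 in the heterozygote. Igfbp3 and Igf1r had overlapping intervals in the heterozygote, and no other adjacent pair beside the one named above overlapped. The level of Igf2bp1 is understated, since the table counts the adjoining 3' model apart. With those reads added it was 24.9 CPM per kb in the mutant and 20.01 in the heterozygote. Other models were also shorter than the RefSeq gene. Igf1 spans 72627 bases against 78783, Igfbp3 7831 against 9413, Igfbp4 11384 against 12651 and Igf2bp3 129493 against 130252. Their levels per kb may be understated too, by an amount that was not measured. The authors' models need not match the GENCODE transcripts, so this order is approximate.

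Other ligands, receptors and carriers of the pathway differed little. Of 10 such genes, 5 reached 1 CPM, with a median log2 ratio of 0.15 and 4 of 5 above 0. At 1.5-fold, 0 were higher and 0 lower, where 3.45% of all genes were higher and 1.88% lower. Igf2, the main ligand gene of the embryo, had 180641 reads in the mutant and 150783 in the heterozygote. Its level of 2628 CPM per kb in the mutant and 2361 in the heterozygote was 1383 times that of Igf1 in the mutant and 992 times in the heterozygote. These multiples are approximate and may be too high. The authors' Igf1 model spans 72627 bases and the RefSeq gene 78783, so the Igf1 level per kb may be understated. The Igf2 ratio between libraries was 1.11 (1.106 to 1.12), and its log2 ratio of 0.15 became -0.008 after removal of a trend on GC content and length. Igf2r, the receptor that clears IGF2, had 45270 reads in the mutant and 36752 in the heterozygote (ratio 1.14, 1.13 to 1.16), and its log2 ratio of 0.19 became 0.08 after the same removal. Igfbp6, a binding protein that prefers IGF2, had 13 reads in the mutant and 15 in the heterozygote, too few to show a difference (ratio 0.805, 0.353 to 1.81).

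Proteases that cut IGFBPs, with the inhibitors of those proteases, had 10 of 11 genes at or above 1 CPM and 8 of 10 above 0. At 1.5-fold, 2 were higher and 0 lower, where 3.45% of all genes were higher and 1.88% lower. The median log2 ratio of 0.27 was 0.15 without the GC and length trend, and also with 5 CPM added. Htra1, a secreted serine protease, had 220 reads in the mutant and 105 in the heterozygote and was 1.95-fold higher in the mutant (1.54 to 2.48). Adam12, a metalloprotease known in human for cleaving IGF binding proteins, had 274 reads in the mutant and 158 in the heterozygote and was 1.61-fold higher (1.32 to 1.97). The Adam12 log2 ratio of 0.64 was under the 1.5-fold bar after removal of the GC trend, at 0.57, and with 5 CPM added, at 0.51.

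For signalling inside the cell, 30 receptor adaptor and PI3K-AKT-mTOR genes were listed. Of these, 28 were in the table and 27 reached 1 CPM, with 12 above 0 and a median log2 ratio of -0.01. At 1.5-fold, 0 were higher and 0 lower, where 3.45% of all genes were higher and 1.88% lower. A count of 0 among 27 genes is near these shares. The most abundant by reads were Grb10, an adaptor that inhibits IGF1R signalling, with 1646 CPM in the mutant and 1682 CPM in the heterozygote (ratio 0.979, 0.961 to 0.997), and the kinase gene Akt1, with 199.6 CPM in the mutant and 201.4 CPM in the heterozygote (ratio 0.991, 0.940 to 1.04). Their direction flipped under other scalings, Grb10 to 0.06 on the log2 scale under total-count scaling and Akt1 to values from 0.001 to 0.07 under 3 scalings, while Akt1 was -0.20 after removal of the GC and length trend.

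Partners, targets and companions of the IGF2 mRNA binding proteins, 18 genes in all, had 7 above 0. Their median log2 ratio was -0.03, and 0.06 under total-count scaling. At 1.5-fold, 0 were higher and 0 lower, where 3.45% of all genes were higher and 1.88% lower. The most abundant by reads were H19, a noncoding RNA bound by these proteins, with 15790 CPM in the mutant and 14684 CPM in the heterozygote (ratio 1.08, 1.07 to 1.08), and Actb, whose message carries the zipcode that Igf2bp1 binds, with 2317 CPM in the mutant and 2409 CPM in the heterozygote (ratio 0.962, 0.947 to 0.977, but above 1 under total-count scaling). Secreted proteins with an IGFBP-like domain had 7 of 9 listed genes at or above 1 CPM, 5 of them above 0, and a median log2 ratio of 0.07. At 1.5-fold, 1 was higher and 1 lower, beside the same shares of all genes. In this group Ctgf, a matricellular protein gene, had 766 reads in the mutant and 1097 in the heterozygote and was 1.54-fold lower in the mutant (1.40 to 1.69). Its relative Nov had 53 reads in the mutant and 26 in the heterozygote and was 1.89-fold higher (1.16 to 3.16). With 5 CPM added, neither passed the 1.5-fold bar, with log2 ratios of -0.58 for Ctgf and 0.32 for Nov, and Ctgf was also short of it under total-count scaling, at -0.53, and without the GC and length trend, at -0.56.

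**Figure D4:**
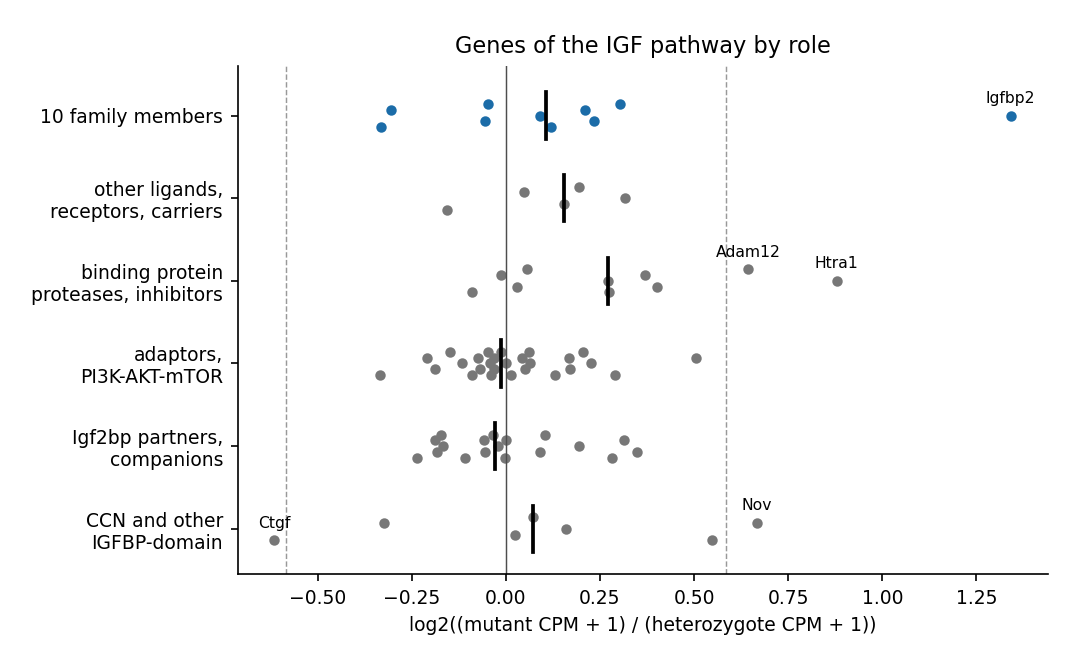
Log2 ratio of mutant to heterozygote with 1 CPM added, for the 10 family genes and for 5 groups of other pathway genes at or above 1 CPM, with 1 point per gene and a black bar at each median. Dashed lines mark 1.5-fold. Igfbp2, Htra1, Adam12 and Nov lie above the upper line and Ctgf below the lower line.

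Markers of the other cell types in the tissue are given beside these ratios because IGF family genes are expressed in several of them. Endothelial genes summed to 741 CPM in the mutant and 788 CPM in the heterozygote, with 1 of 8 log2 ratios above 0. Endocardial genes summed to 245 CPM in the mutant and 239 CPM in the heterozygote, with 2 of 4 above 0, and epicardial genes to 237 CPM in the mutant and 232 CPM in the heterozygote, with 4 of 8 above 0. Fibroblast and cushion genes summed to 1353 CPM in the mutant and 1372 CPM in the heterozygote, with 4 of 8 above 0. Each of these lists thus held genes on both sides of 0, but 7 of the 8 endothelial genes were below it, with a median log2 ratio of -0.17. The cardiomyocyte genes summed above had 6 of 10 above 0. Their median log2 ratio was 0.17, and -0.05 without the GC and length trend. Pericyte and smooth muscle genes summed to 1527 CPM in the mutant and 1641 CPM in the heterozygote, with 3 of 8 above 0, a median log2 ratio of -0.09 and a range from -1.62 for Rgs5 to 0.55 for Tagln. Leukocyte genes summed to 50.6 CPM in the mutant and 56.3 CPM in the heterozygote, with 2 of 7 above 0. Erythroid genes summed to 9146 CPM in the mutant and 13531 CPM in the heterozygote, with 1 of 7 above 0 and a median log2 ratio of -0.48. Without the GC and length trend their median was -0.08, but that set lacked Hbb-b1, which had no matched transcript. Hbb-b1 was the lowest of the list, at -1.05. Hepatocyte genes were near 0, with a sum of 1.10 CPM in the mutant and 2.22 CPM in the heterozygote. Of the neural crest genes Sox10 had 3 reads in the mutant and 0 in the heterozygote, and Foxd3 had 0 in each. The part of cell type composition in the ratios of the family was not tested.

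Log2 ratios followed the GC content of transcripts, with a median of -0.18 in the lowest of 10 equal-sized GC groups and 0.17 in the highest. Igfbp2, at 62.1% GC, and Igfbp7, at 58.8%, belonged to the highest group, in which 0.829% of genes were at least 2-fold higher, and Igf1, at 37.96%, to the lowest. With a trend on GC content and length removed, the log2 ratio of Igfbp2 was 1.19 in place of 1.34. That of Igf1 was then -0.16 in place of -0.30, Igf1r 0.11 in place of 0.21, Igf2bp1 0.20 in place of 0.30 and Igf2bp2 0.20 in place of 0.23. Igfbp3 was then -0.34 in place of -0.33, and Igfbp5 -0.12 in place of -0.05. The sign flipped for Igfbp4, to -0.03, and for Igf2bp3, to 0.007. Under total-count scaling it flipped for Igf2bp3, to 0.04, and for Igfbp5, to 0.03.

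**Figure D5:**
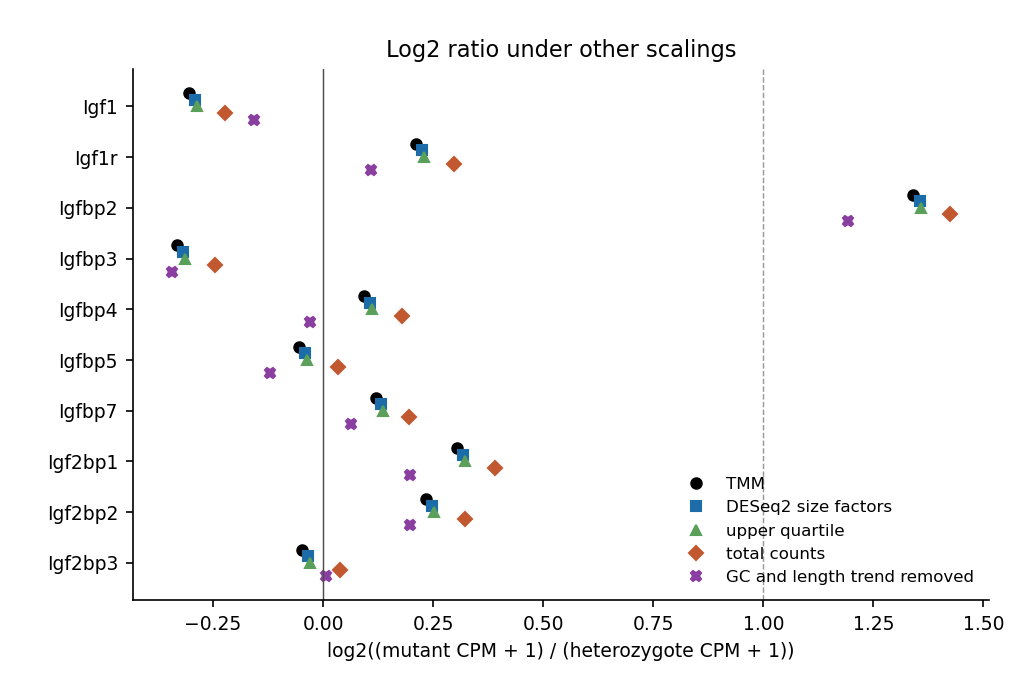
Log2 ratio of mutant to heterozygote with 1 CPM added for each family gene under 4 scalings of the libraries and after removal of a trend on GC content and transcript length (symbols). The dashed line marks 2-fold. Igfbp2 is past it under each, from 1.19 to 1.42, while Igfbp4, Igfbp5 and Igf2bp3 have points on both sides of 0.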

How the data were processed

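RNA-seq gene tables of 2 libraries, 1 per genotype, were used. The deposited read counts per gene model are raw reads, per the file headers. Beside them the authors gave CPM of each library's own total, and recomputing them gave differences of at most 4.91e-11. The authors' fold (a ratio of heterozygote over mutant) and p-value columns, per the file headers, come with no named test and were not used. The sources used here name no aligner, counter, strand setting or build. The series table and the single-sample tables held the same counts (0 rows differed).

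Rows of 1 symbol were summed, and each family gene had 1 row. Counts were scaled with TMM in edgeR 4.0.16 under R 4.3.3, and ratios have exact conditional Poisson intervals (SciPy 1.17.1), which cover counting error only. Log2 ratios used a pseudocount of 1 CPM and genes at or above 1 CPM in the higher library. The functions were tested on simulated data. Length and GC content came from the longest GENCODE M21 transcript, matched by symbol or RefSeq synonym for 94.6% of the tested symbols that are not clone accessions. Alternatives were DESeq2 1.42.0 size factors, upper-quartile and total-count scaling, other pseudocounts and floors, removal of mitochondrial genes, the row with most reads only, and removal of a GC and length trend. The family genes, lists and tests were chosen with earlier results of these data known. Named genes are the 10 family genes, Ezh2, Igf2, Igf2r, Igfbp1, Igfbp6, and from each other list up to 4 genes farthest from 0 among those at least 1.5-fold apart or, with none, the 2 of highest mean CPM. Mimp3, Polr2b and the marker genes named singly were chosen after their values were seen. Some marker genes are not reported here.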

Additional observations from a re-analysis of the deposited data

How the results depend on the processing

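Igfbp2 was the 1 family gene at least 2-fold and at least 1.5-fold higher, with 0 lower, under every scaling, pseudocount and floor tried and without the GC trend, with log2 ratios from 1.17 to 1.42. Over all genes, the counts at least 2-fold higher and lower were 98 and 28. They were 312 and 143 with a pseudocount of 0.1 CPM, 14 and 6 with 5 CPM, and 50 and 14 with a floor of 5 CPM. The counts at least 1.5-fold higher and lower were 559 and 305. They were 993 and 573 with 0.1 CPM, 121 and 50 with 5 CPM, 279 and 159 with the floor of 5 CPM, and 351 and 159 without the GC trend. Removing the trend also left out genes with no matched transcript, so those last counts cover fewer genes. Total-count scaling gave 190 lower. The median of other ligands, receptors and carriers was 0.0121 without the GC trend in place of 0.15, and the cause was not tested. Of the family's log2 ratios under alternatives, 95 stayed within their counting error and 6 did not. The 95 include the changes of floor and the row with most reads only, which could not alter a family ratio. All 10 family genes were above 5 CPM and had 1 row each. Adding the adjoining model to Igf2bp1 was chosen after seeing the data. No replicate could be left out, and no paired analysis was possible because each genotype has 1 library. Depth limits Igfbp6, Igfbp7 and Nov, with under 100 reads a library.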
